A study of Homo sapiens with 8 samples.

Results

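The 4 input arrays of the series were compared by their replicate number, so that the inputs numbered 2 were set against the inputs numbered 1. They were 4 of the 8 arrays and were chosen by label alone: the miR-23b input and the miR-27a input, each with a replicate 1 and a replicate 2. The cells were HEK293T, a long-established human line of embryonic kidney origin, and those of every group had received 200 pmol of a biotinylated synthetic duplex, either miR-23b or miR-27a, with a lipid reagent and had been harvested after 24 h. An input was total RNA taken without capture, and the other 4 arrays held the matching pull-downs, that is RNA recovered with the duplex on streptavidin beads. No array of cells without a duplex was analysed here, so the transfection was shared by every sample. The labels do not say whether a number marks a separate culture, transfection or hybridisation, nor whether an input and a pull-down of the same number came from the same cells. The p-values below therefore set each difference only against how closely the miR-23b pair and the miR-27a pair agree. That spread was estimated from inputs and pull-downs together and drawn towards that of all probes, and it may be a technical spread.

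A microRNA loaded into an Argonaute protein pairs with messenger RNAs mostly through its seed (bases 2 to 8), and the bound messages are then silenced. In a capture experiment the input serves as the reference, so that any difference between inputs enters the enrichment of every gene. The mature forms of both microRNAs are shown because they are what separates the members of each input pair from the other pair; the labels name no arm, and the sequences are those of the 3p arms in RefSeq (build GRCh38.p14), with the seed in capitals. That of miR-23b lies at chr9:95085265-95085287 on the plus strand and that of miR-27a at chr19:13836447-13836467 on the minus strand.
hsa-miR-23b-3p: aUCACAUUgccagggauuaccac
hsa-miR-27a-3p: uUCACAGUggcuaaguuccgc

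The input arrays resembled each other by number more than by microRNA. Across 14479 probes the miR-23b and miR-27a inputs correlated at r = 0.995 for replicate 1 and at r = 0.996 for replicate 2, whereas both replicates of one microRNA correlated at 0.981 for miR-23b and 0.983 for miR-27a. The difference between replicate 2 and replicate 1 was correlated between the microRNAs too (r = 0.80, Spearman's rho = 0.76 across probes), although the pairs share no array. Probes are not independent replicates, and these coefficients describe the arrays only. The array medians lay between 9.09 and 9.12 on the deposited log2 scale, so each difference is read against the rest of the array.

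Shifts between the input replicates were broad and mostly small. With limma and an adjusted p under 0.05, 3801 of 14479 probes passed (26.3%), of which 1870 were higher in replicate 2 (12.9%) and 1931 were lower (13.3%). At 1 probe per gene, 1006 of 9535 genes were higher (10.6% of all genes tested) and 1396 were lower (14.6%). The median difference over all genes was -0.04 and the SD was 0.28 on the log2 scale. Among the genes that passed, 360 were higher by over 0.5 and 416 lower by over 0.5, but only 11 were higher by over 1 and 2 lower by over 1. Both replicate 2 inputs lay above both replicate 1 inputs for 2723 genes (28.6%) and below them for 3617 genes (37.9%). The plot of the miR-27a pair against the miR-23b pair shows these genes along 1 axis. The calls rest on the pairing and on both pairs, since 184 probes passed in a fit without pairing by microRNA (145 higher and 39 lower), and 469 or 628 when a miR-23b or a miR-27a input was left out.

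**Figure D1:**
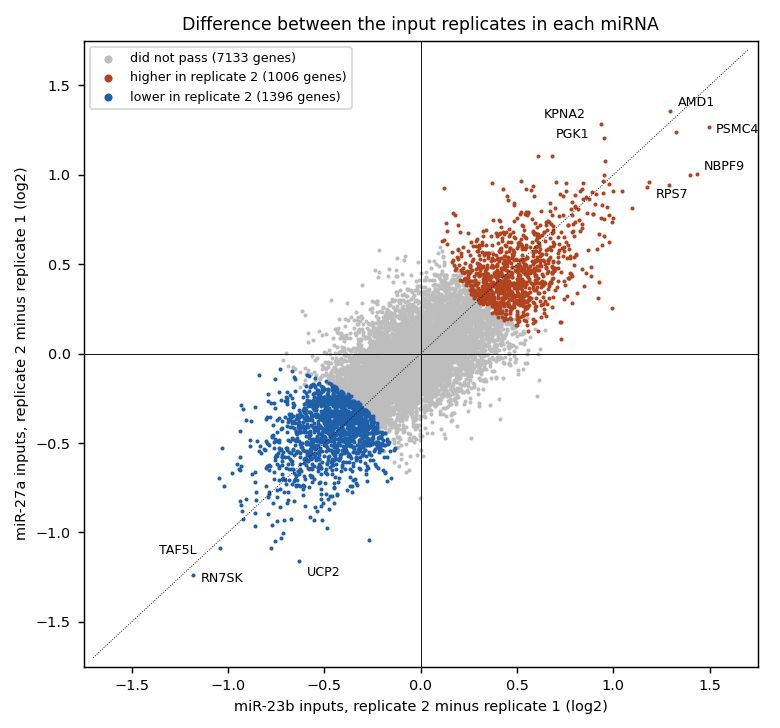
Each point is 1 of 9535 genes, with the log2 difference between replicate 2 and replicate 1 in the miR-23b inputs on the x axis and in the miR-27a inputs on the y axis; the dotted line marks equal differences. The 1006 genes called higher and the 1396 called lower lie on the same side of 0 in both pairs.

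By the brightest probe of each gene, the largest rise belonged to PSMC4, an ATPase of the regulatory particle of the proteasome. Its deposited log2 value was 8.21 and 8.63 in the replicate 1 inputs (miR-23b and miR-27a, in this order throughout) and 9.70 and 9.90 in the replicate 2 inputs, a difference of 1.38 ± 0.11 (SE, n = 2 pairs; adjusted p = 1.36e-05) or an apparent 2.60-fold. All 3 PSMC4 probes rose, by 1.11, 1.18 and 1.38. In the pull-downs PSMC4 was at 7.87 and 7.64 in replicate 1 and at 8.14 and 7.68 in replicate 2, so that those groups lay close together (0.15, adjusted p = 0.35), and the difference between the kinds passed (adjusted p = 0.00061).

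AMD1, the S-adenosylmethionine decarboxylase of polyamine synthesis, went from 8.73 and 8.78 in the replicate 1 inputs to 10.02 and 10.14 in the replicate 2 inputs (1.33 ± 0.12, adjusted p = 2.1e-05). The pull-downs showed no such rise, with 9.85 and 11.12 in replicate 1 and 9.75 and 10.55 in replicate 2. KPNA2, an importin that carries cargo into the nucleus, stood at 8.55 and 8.39 and then at 9.49 and 9.67 in the inputs (1.11 ± 0.12). Its pull-down values overlapped, at 7.98 and 8.45 in replicate 1 and 7.96 and 8.17 in replicate 2, and were dim like those of PSMC4. ALYREF, an adaptor of messenger RNA export, rose in the inputs, with 8.49 and 8.66 against 9.68 and 9.61 (1.07 ± 0.11). Its pull-down difference was 0.02.

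PGK1, which makes ATP in glycolysis, and TUBA1C, an alpha tubulin, rose in both kinds of sample. PGK1 was at 10.58 and 10.40 in the replicate 1 inputs and at 11.53 and 11.61 in the replicate 2 inputs (1.08 ± 0.11), and its pull-downs rose by 0.56. TUBA1C was at 12.69 and 13.12 and then at 13.98 and 14.06 (1.12 ± 0.12), with a rise of 0.63 in the pull-downs. The inputs of both genes did not overlap between the numbers. RPS7, a protein of the small ribosomal subunit, was at 10.55 and 10.70 against 11.72 and 11.63 (1.05 ± 0.11) and lay between 8.74 and 9.19 in all 4 pull-downs. The translin partner TSNAX rose by 1.02 and ATG4B, the protease that processes LC3-like proteins in autophagy, by 0.98, and neither passed in the pull-downs.

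NBPF9 and NBPF10 of the duplicated neuroblastoma breakpoint family had the largest rises that were also large in the pull-downs. NBPF9 was at 11.88 and 11.80 in the replicate 1 inputs and at 13.31 and 12.81 in the replicate 2 inputs (1.22 ± 0.12), and the pull-downs went from 12.22 and 12.42 to 13.72 and 14.11 (1.59). NBPF10 rose by 1.20 in the inputs and 1.30 in the pull-downs. Members of the family are near copies, so their probes may read several genes, and a dimmer NBPF10 probe differed by 0.12 and did not pass. PIPSL, a transcribed chimaera of PIP5K1A and PSMD4 sequence, rose by 1.28 and may likewise read its parent genes, of which PSMD4 rose by 0.48 and PIP5K1A fell by 0.64. RefSeq names 15 pseudogenes after RPS7, 4 after AMD1 and 3 after KPNA2, so the source of those signals is uncertain as well. The 12 genes with the largest rises were chosen among those that passed and were higher in both pairs. Their adjusted p-values lay between 1.36e-05 for PSMC4 and 0.00021 for ATG4B.

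**Figure D2:**
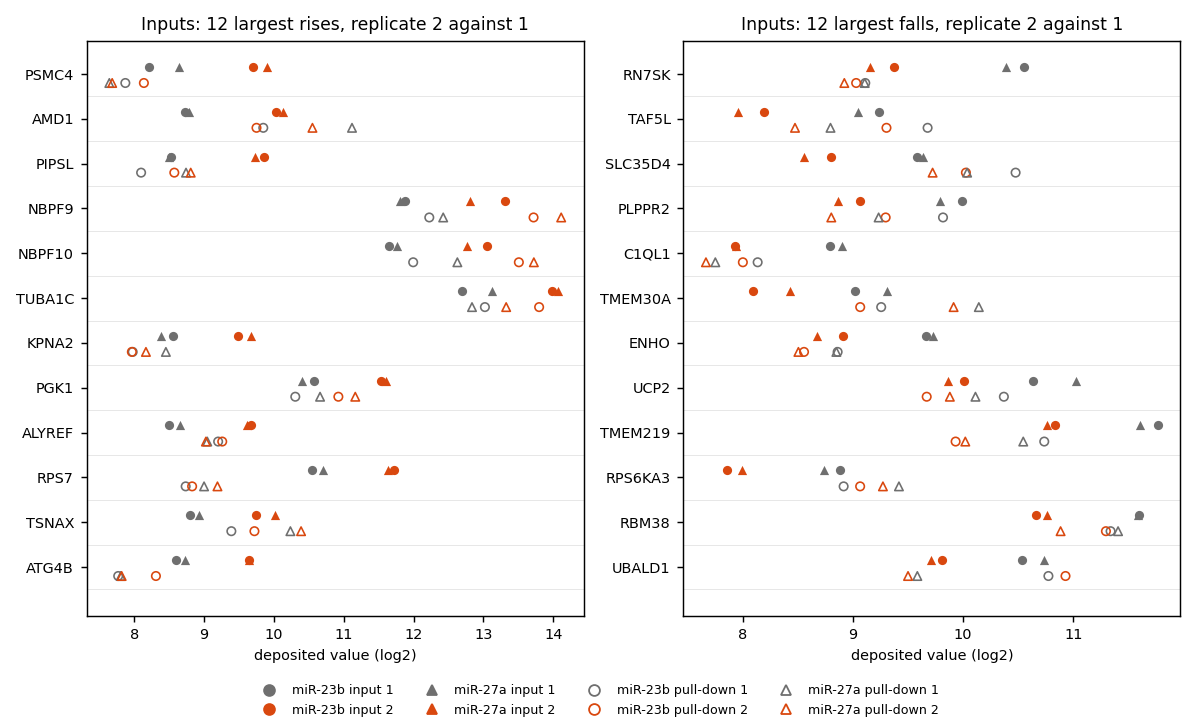
Deposited log2 value of the 12 genes with the largest rise (left) and the 12 with the largest fall (right) between the input replicates; filled symbols are inputs, open symbols pull-downs, circles miR-23b and triangles miR-27a, with replicate 1 in grey and replicate 2 in orange. The filled grey and orange symbols do not overlap in any of the 24 genes, which were chosen by their input difference. The open ones overlap in many, among them KPNA2 and RPS6KA3.

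The largest fall was in RN7SK, the small nuclear RNA that holds the elongation factor P-TEFb inactive. It was at 10.55 and 10.39 in the replicate 1 inputs and at 9.37 and 9.15 in the replicate 2 inputs, a fall by 1.21 ± 0.10 (adjusted p = 2.1e-05) or an apparent 2.31-fold. The 4 pull-downs lay between 8.92 and 9.11, below all inputs, and did not pass (-0.13, adjusted p = 0.38). RefSeq names 293 pseudogenes after this gene, so other copies may contribute.

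TAF5L, a subunit of SAGA-type histone acetyltransferase complexes, fell from 9.24 and 9.04 to 8.20 and 7.96 in the inputs (-1.07 ± 0.10) and by 0.35 in the pull-downs. TMEM219, described as a receptor of IGFBP3, fell in both kinds. It was at 11.77 and 11.61 and then at 10.83 and 10.76 in the inputs (-0.89 ± 0.11), and at 10.74 and 10.55 and then at 9.93 and 10.02 in the pull-downs (-0.67). UCP2, a carrier of the inner mitochondrial membrane, fell by 0.90 in the inputs and 0.47 in the pull-downs, but its input call was lost without either miR-27a input (adjusted p = 0.070).

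RPS6KA3, the kinase RSK2 of the MAPK pathway, fell in the inputs and not in the pull-downs. Its inputs were at 8.88 and 8.73 and, in replicate 2, at 7.93 on average (-0.88 ± 0.12), while its pull-downs were at 8.92 and 9.42 and then at 9.06 and 9.27 (0.00), and the difference between the kinds passed (adjusted p = 0.0063). A dimmer probe of RPS6KA3 differed by 0.19 in the inputs and did not pass. The other falls among the 12 largest lay between 0.88 and 0.93 and came from SLC35D4, PLPPR2, the C1q-like gene C1QL1, the flippase subunit TMEM30A, ENHO, which encodes adropin, the RNA-binding protein RBM38 and UBALD1. Both probes of ENHO and of RBM38 fell. Without pairing by microRNA 13 of the 24 genes kept their call (adjusted p = 0.032 to 0.049) and 11 lost it, namely AMD1, NBPF10, TSNAX, TAF5L, SLC35D4, PLPPR2, C1QL1, TMEM30A, UCP2, RPS6KA3 and UBALD1 (adjusted p = 0.050 to 0.36).

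Larger rises than these were recorded by dimmer probes of genes with several probes, which the rule of the brightest probe had set aside. They were singled out after their values had been seen. Of the 56 probes that were higher by over 1, 22 were dimmer probes of genes with several, 23 had no gene name, 6 were the sole probe of a gene and 5 the brightest of several. CCT7, a subunit of the chaperonin that folds actin and tubulin, had a probe at 9.31 and 9.47 in the replicate 1 inputs and at 11.36 and 11.33 in the replicate 2 inputs (1.95), the largest difference of any probe. Its brightest probe went from 13.16 and 13.47 to 13.84 and 13.86 (0.53).

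The same was seen for structural and metabolic genes. A TUBA1A probe rose by 1.80 while the brightest differed by 0.21, and an ACTG1 probe for cytoplasmic gamma actin went from 11.06 and 11.19 to 12.57 and 12.85 (1.59) while the brightest stayed between 14.41 and 14.56 on all 4 inputs (0.03). The RNA helicase DHX9 had 1.68 against 0.28, the glycolytic PGAM1 had 1.44 against 0.89, ALDOA had 1.37 against 0.25 and the succinate dehydrogenase subunit SDHA had 1.38 against 0.48. In 20 genes a dimmer probe rose by over 1, and of their brightest probes 11 were higher, 1 was lower and 8 did not pass (median 0.36). The lower one belonged to CCT6A, at -0.32 with its brightest probe and 1.17 with the other.

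The classes of probe were also counted. Among 2473 dimmer probes of genes with several, 20.3% were higher and 9.26% lower, beside 12.6% and 15.2% of the 2104 brightest ones, and the medians were 0.04 and -0.03. In the pull-downs 9.18% of the dimmer probes were higher and 12.9% lower, where 12.5% and 12% of all probes were. Where both outer probes of a gene lay close in level (a median gap of 0.21) their differences correlated at r = 0.66 across genes, and where they lay far apart (2.94) at r = 0.37, with medians of 0.08 for the dimmest and -0.04 for the brightest. Which isoform or stretch of a transcript each probe reads was not known here. In 35 of these 2104 genes one probe was called higher and another lower, among them ZYX.

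**Figure D3:**
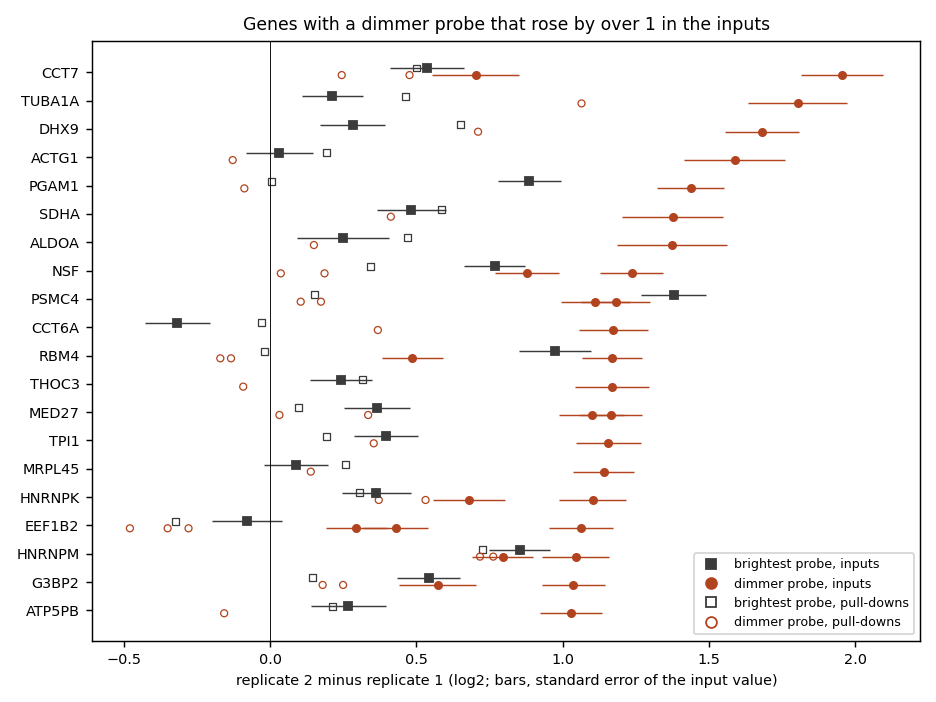
Log2 difference between replicate 2 and replicate 1 for every probe of the 20 genes in which a dimmer probe rose by over 1 in the inputs; squares are the brightest probe and circles the dimmer ones, filled for inputs (bars, SE) and open for pull-downs. The dimmer CCT7 probe lies at 1.95 and the brightest at 0.53, and the open symbol of that dimmer probe at 0.24.

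Chaperones of the heat shock response that passed were nearly all higher in replicate 2. Of 18 measured members 10 rose, 1 fell and 7 did not pass, with a median of 0.40, against 10.6% higher, 14.6% lower and a median of -0.04 over all genes. HSPA1A, the inducible HSP70, was at 12.25 and 12.31 in the replicate 1 inputs and at 13.25 and 13.04 in the replicate 2 inputs (0.87 ± 0.11), and at 11.24, 10.92, 12.25 and 12.19 in the pull-downs (1.14). Its near copy HSPA1B was at 13.32 and 13.32 and then at 14.06 and 14.09 (0.76 ± 0.10), with 1.12 in the pull-downs. Probes of these neighbouring copies may read both. HSPA4 (0.71) and the cochaperone DNAJA1 (0.58) rose as well, while the small heat shock protein HSPB1 fell by 0.37. In the pull-downs 9 members rose and 0 fell (median 0.32), where 13.9% of all genes were higher and 11.8% lower.

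Enzymes of glycolysis gave the same picture, with 9 of 17 higher, 0 lower and a median of 0.40. Over all genes 10.6% were higher and 14.6% lower. PGAM1 was at 11.26 and 11.37 and then at 12.20 and 12.20 (0.89 ± 0.11), with no such rise in the pull-downs (0.01, adjusted p = 0.98), and PFKM, the muscle phosphofructokinase, rose by 0.51 and 0.56. For the pyruvate kinase PKM the brightest probe was at 11.44, 11.71, 11.51 and 11.75 in the inputs (0.06) and rose in the pull-downs, from 11.50 and 10.92 to 12.54 and 11.79 (0.95), while both dimmer PKM probes rose in the inputs too, by 0.52 and 0.50. The difference between the kinds passed for the brightest PKM probe (adjusted p = 0.0033). In the pull-downs 11 of 17 rose and 0 fell (median 0.47), where 13.9% of all genes were higher and 11.8% lower.

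Subunits of the proteasome followed, with 14 of 31 higher, 0 lower and a median of 0.26 in the inputs. In the pull-downs 13 were higher and 0 lower, with a median of 0.28. Over all genes 10.6% were higher and 14.6% lower in the inputs, and 13.9% and 11.8% in the pull-downs. After PSMC4 came PSMC6, another ATPase of the regulatory particle, at 10.66 and 10.69 and then at 11.56 and 11.58 (0.90 ± 0.11), and PSMA5, an alpha ring subunit, at 12.12 and 12.29 and then at 13.01 and 13.07 (0.84 ± 0.10). Both rose in the pull-downs too, by 0.38 and 0.54. PSMC4 was the only one of the 31 that passed the test of the difference between the kinds. The counts of these lists were small when the pairing was dropped (1 heat shock, 2 glycolysis and 3 proteasome genes higher). They were small with 1 pair of inputs as well. The medians lay between 0.26 and 0.45 in these fits. Dropping the pairing cannot change a log2 difference here, and 1 pair is a part of the same average. These medians are therefore no support.

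Most genes of growth and division did not pass, and those that passed were mostly higher, where 10.6% of all genes were higher and 14.6% lower. Of 42 genes of ribosome biogenesis 10 rose and 0 fell (median 0.22), among them the nucleolar proteins NCL (0.60) and NOLC1 (0.59). In the pull-downs 12 of the 42 rose and 1 fell, where 13.9% of all genes were higher and 11.8% lower. Of 42 genes of the G1/S transition and DNA replication 12 rose and 1 fell (median 0.21). The ribonucleotide reductase subunit RRM2 was at 7.60 and 7.65 and then at 8.27 and 8.45 (0.74 ± 0.12) and the helicase subunit MCM7 at 12.35 and 12.58 and then at 13.11 and 13.12 (0.65 ± 0.11), whereas CCNE1, the cyclin of S phase entry, fell by 0.47. For G2/M and mitosis 11 of 49 rose and 1, FOXM1, fell (median 0.18). The mitotic kinase CDK1 rose by 0.57 and the spindle factor TPX2 by 0.57. In 18 cytosolic aminoacyl-tRNA synthetases 5 rose and 0 fell (median 0.16), with the seryl enzyme SARS1 at 0.88. Among 33 genes of the cytoskeleton and targets of SRF 11 rose and 2 fell (median 0.21). The tubulin TUBB4B rose by 0.66 and vimentin, VIM, by 0.69, and the adhesion proteins ZYX and VCL fell by 0.50 and 0.35, although the dimmer ZYX probe rose by 0.47. Splicing proteins of the hnRNP and SR families, a list added after the values had been seen, had 12 of 33 higher and 1 lower, with HNRNPM at 0.85. These counts rest on the pairing and on both pairs. Without pairing 1 G1/S gene, 1 cytoskeletal gene and 1 splicing gene were higher, and 0 of the ribosome biogenesis, mitosis and synthetase genes. With 1 pair of inputs the higher genes numbered 2 or 3 for G1/S, 0 or 3 for mitosis, 1 or 2 for ribosome biogenesis, 1 for the synthetases, 1 or 6 for the cytoskeleton and 1 or 2 for splicing.

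**Figure D4:**
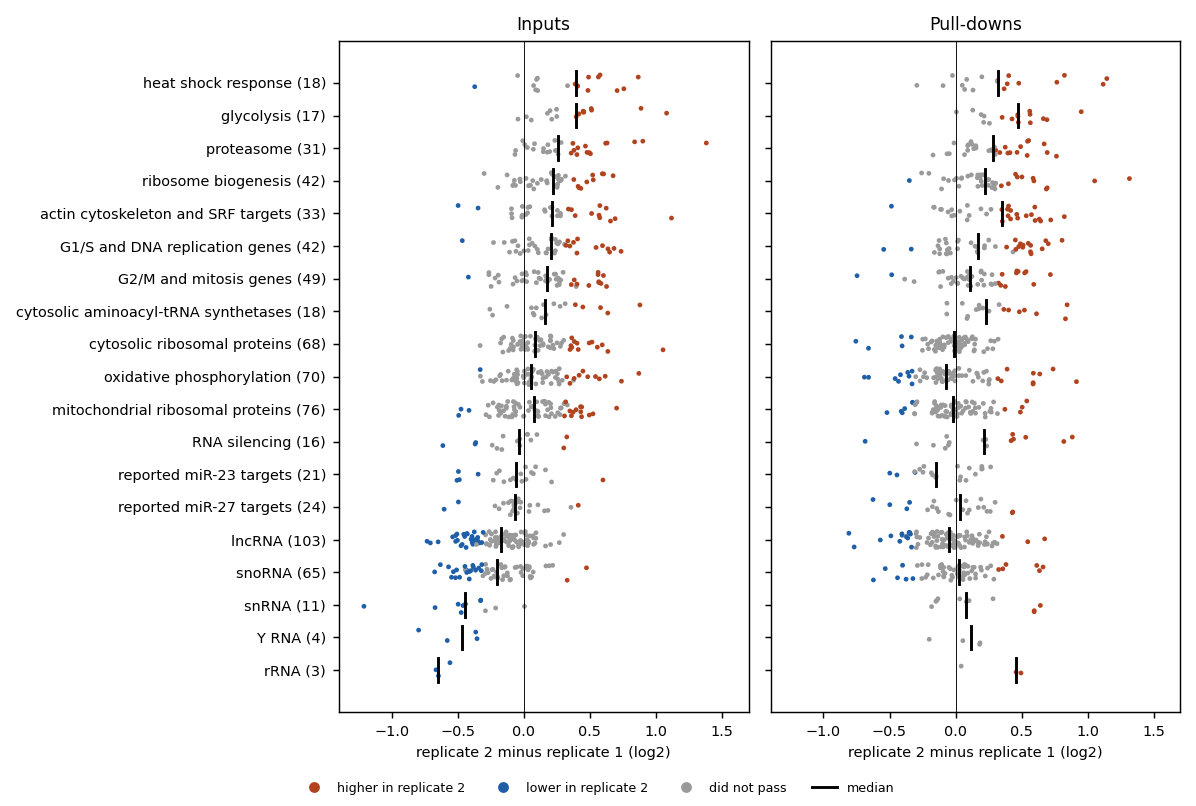
Log2 difference between replicate 2 and replicate 1 of every measured member of 14 gene lists and 5 RNA classes in the inputs (left) and in the pull-downs (right), with the number of genes in parentheses and the median as a bar; orange and blue points passed. The medians of heat shock, glycolysis and proteasome genes are above 0.25 on both sides, while that of the rRNA genes is -0.65 on the left and 0.46 on the right.

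Genes of the translation and respiration machinery that passed in the inputs were mostly higher. The shares over all genes were 10.6% higher and 14.6% lower in the inputs, and 13.9% and 11.8% in the pull-downs. Of 68 cytosolic ribosomal protein genes 13 rose (19.1%) and 0 fell in the inputs (median 0.09), and in the pull-downs 0 rose and 5 fell (7.35%, median -0.01). RPS2 was at 14.08 and 14.02 and then at 14.31 and 14.30 in the inputs (0.25, adjusted p = 0.16) and fell by 0.75 in the pull-downs, and the difference between the kinds passed for 6 of the 68, all lower in the pull-downs. RPL22 rose by 0.64 in the inputs. Of 70 genes of oxidative phosphorylation 11 rose (15.7%) and 1 fell in the inputs (median 0.06), led by ATP5F1A of ATP synthase (0.87 ± 0.10), and 9 rose and 9 fell in the pull-downs, 12.9% each. For 76 mitochondrial ribosomal protein genes the counts were 13 (17.1%) and 3 in the inputs (median 0.08), while the 4 higher (5.26%) and 6 lower (7.89%) in the pull-downs were below the shares over all genes. Without pairing 1 cytosolic ribosomal, 0 oxidative phosphorylation and 1 mitochondrial ribosomal gene passed as higher in the inputs, and 1 to 3 of each with 1 pair of inputs.

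Some lists were divided or near the background. Cholesterol synthesis had 4 of 17 higher and 4 lower, the amino acid response of ATF4 had 3 of 26 higher and 5 lower, targets of HIF1 had 2 of 18 higher and 5 lower, and lysosome and autophagy genes had 5 of 23 each way. ATF4 itself fell by 0.41 and DDIT3 by 0.42. For 14 replication-dependent histones and 6 metallothionein and zinc genes 0 passed in limma. Among reported targets of the transfected microRNAs 1 of 21 miR-23 targets was higher (4.76%) and 4 were lower (19.0%), with a median of -0.06, and 1 of 24 miR-27 targets was higher (4.17%) and 2 were lower (8.33%), also with a median of -0.06. Over all genes these shares were 10.6% and 14.6%. SPRY2, an inhibitor of growth factor signalling held by both lists, was at 10.04 and 9.82 and then at 9.39 and 9.47 (-0.50 ± 0.13), and the nuclear receptor PPARG fell by 0.60. Both microRNAs were present in each replicate, and the comparison does not test their effect.

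Genes of RNA silencing were near the background in the inputs. Of 16 measured, 2 rose (12.5%) and 3 fell (18.75%) there (median -0.04), beside 10.6% and 14.6% of all genes. In the pull-downs 6 rose (37.5%) and 1 fell (6.25%), with a median of 0.22, where 13.9% of all genes were higher and 11.8% lower. In the test of the difference 5 were higher, where 2.8% of all genes were higher and 1.71% lower. AGO2, the slicing Argonaute, was at 11.82 and 12.11 and then at 11.59 and 11.62 in the inputs (-0.36 ± 0.11), and at 11.99, 12.28, 12.25 and 12.44 in the pull-downs (0.21, adjusted p = 0.19). XPO5, which exports microRNA precursors, was at 10.51, 10.46, 10.67 and 10.50 in the inputs and went from 10.81 and 10.65 to 11.67 and 11.43 in the pull-downs (0.82). The scaffold gene TNRC6B rose in both, by 0.30 and 0.88.

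Small and long noncoding RNAs that passed were mostly lower in the replicate 2 inputs. Of 11 small nuclear RNAs 8 fell and 0 rose (median -0.44), of 65 small nucleolar RNAs 20 fell and 2 rose (-0.20), of 103 long noncoding RNAs 32 fell and 0 rose (-0.17), and all 4 Y RNAs and all 3 ribosomal RNA genes fell, against 14.2% lower and 10.7% higher of 9199 protein-coding genes. RNY1, a Y RNA of the Ro particle, was at 10.41 and 10.47 and then at 9.62 and 9.67 (-0.80 ± 0.12). The probe of 18S ribosomal RNA, RNA18SN5, was at 12.35 and 12.34 and then at 11.66 and 11.70 (-0.66 ± 0.10), and the replicates did not overlap. Of 7 microRNA genes, MIR1228 (0.78) and MIR586 (0.86) rose and 0 fell. The grouping by RefSeq gene type was made after the values had been seen.

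In the pull-downs 0 of the small nuclear, Y and ribosomal RNAs passed as lower. RNA18SN5 was at 10.36 and 10.20 and then at 10.90 and 10.65 in the pull-downs, a rise by 0.49, and the difference between the kinds passed (1.16, adjusted p = 0.00055). The probe of 5S ribosomal RNA, RNA5S9, fell by 0.65 in the inputs and rose by 0.46 in the pull-downs, and RNU1-3, one of several near-identical U1 genes, fell by 0.47 and rose by 0.64. SNHG9, a host gene of small nucleolar RNA, went from 11.37 and 11.33 to 10.77 and 10.63 in the inputs (-0.65) and from 10.01 and 10.37 to 10.77 and 10.96 in the pull-downs (0.67). DANCR, a long noncoding RNA, fell in both kinds (-0.73 and -0.81). Of the small nuclear RNAs 3 were higher (27.3%) and 0 lower in the pull-downs (median 0.08). The small nucleolar RNAs had 6 higher and 6 lower there (9.23% each, median 0.03). Of the long noncoding RNAs 3 were higher (2.91%) and 13 lower (12.6%), where 13.9% of all genes were higher and 11.8% lower. Of the 112 genes outside the protein-coding class that passed in the inputs, RN7SK aside, 4 kept their call in all alternatives (RNY1, SNORA38B, MIR1228 and PIPSL), and 107 lost it when 1 input was left out.

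The pull-downs carried part of the shift of the inputs. The difference between replicate 2 and replicate 1 correlated at r = 0.54 across probes between inputs and pull-downs of miR-23b, at 0.34 for miR-27a and at 0.39 across the microRNAs, against 0.80 within inputs and 0.66 within pull-downs. In the pull-downs 1326 genes were higher in replicate 2 (13.9%) and 1129 lower (11.8%). Among the 1006 genes higher in the inputs, 743 (73.9%) had both pull-down pairs above 0, where 35.9% of all genes did, and 489 were called higher there (48.6% of the input calls and 36.9% of the pull-down calls) and 18 lower. Their median was 0.44 in the inputs and 0.31 in the pull-downs. Among the 1396 genes lower in the inputs, 1011 (72.4%) had both pull-down pairs below 0, where 35.7% of all genes did, and 549 were called lower (39.3% of the input calls and 48.6% of the pull-down calls) and 26 higher. Their medians were -0.43 and -0.25. These genes were chosen by their input difference, so the sizes in inputs and pull-downs are not compared, and the fits share 1 estimate of the spread. Over all genes the SD of the difference was 0.28 in the inputs and 0.31 in the pull-downs, and 597 genes passed as higher by over 0.5 in the pull-downs beside 360 in the inputs.

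The difference between the kinds itself passed for 267 genes that were higher in the pull-downs (2.8%) and 163 that were lower (1.71%), and for 356 (2.46%) and 521 (3.6%) of all probes. Of the genes called in the inputs it passed for 129 (12.8%) of the higher and 102 (7.31%) of the lower ones, beside 4.51% of all genes. The called genes were chosen by their input difference, which enters this test, so their larger shares are not read as a result. HERC2, a very large ubiquitin ligase, led with 2.03. It was at 8.58 and 8.85 in the replicate 1 inputs and at 9.30 and 9.25 in the replicate 2 inputs (0.56), but at 9.67 and 10.54 and then at 12.68 and 12.70 in the pull-downs (2.59). Its value in the pull-down over that in the input was thus 1.09 and 1.69 in replicate 1 and 3.39 and 3.44 in replicate 2 on the log2 scale. The call of the difference was lost for HERC2 without pairing by microRNA (adjusted p = 0.15).

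DYNC1H1, the heavy chain of cytoplasmic dynein, rose by 0.57 in the inputs and by 2.51 in the pull-downs, where it went from 9.48 and 9.89 to 12.20 and 12.18. The separase gene ESPL1 was at 9.12, 9.42, 9.37 and 9.50 in the inputs (0.17, adjusted p = 0.37) and went from 9.81 and 10.19 to 12.27 and 12.10 in the pull-downs (2.19), and without pairing its call of the difference was lost (adjusted p = 0.052). MED12 of the Mediator kinase module and HEATR5B were higher in the pull-downs only, with 1.59 and 1.57 there against -0.21 and -0.27 in the inputs, neither of which passed. BSN, which encodes the presynaptic protein bassoon, and the ubiquitin ligase gene UBR4 were the next largest in the pull-downs (1.94 and 1.77). The pull-down replicates of these 7 genes did not overlap, and those numbered 2 were the higher ones. The genes were chosen by their pull-down difference or by the difference between the kinds, so this order follows from the choice.

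In the other direction AMD1 and KPNA2 differed by -1.66 and -1.26, with inputs that rose and pull-downs that did not pass. Without pairing by microRNA this call was lost for AMD1 (adjusted p = 0.42), KPNA2 (0.18) and the other 3 genes lowest by the difference, SPG21 (0.14), GNG10 (0.26) and LYPLA1 (0.39). SPG21 rose by 0.57 in the inputs and fell by 0.86 in the pull-downs, and LYPLA1, an acyl-protein thioesterase, rose by 0.67 and fell by 0.64. The G protein subunit gene GNG10 was at 10.71, 10.59, 10.98 and 10.84 in the inputs (0.26, adjusted p = 0.090) and fell from 10.76 and 11.17 to 9.52 and 10.18 in the pull-downs (-1.11). For GNG10 the pull-down over input value went from 0.05 and 0.59 in replicate 1 to -1.46 and -0.66 in replicate 2, that is from above to below the input. SERF1B (-1.03), the AP-3 adaptor subunit AP3S1 (-0.99), RC3H2, the RNA-binding roquin-2 (-0.91), and CEP15 (-0.88) were the next lowest in the pull-downs. Over all genes the values of pull-down over input correlated at 0.85 between the replicates for miR-23b and at 0.88 for miR-27a. The number of genes with a value over 1 was 295 in replicate 1 and 489 in replicate 2 for miR-23b, and 662 and 767 for miR-27a.

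**Figure D5:**
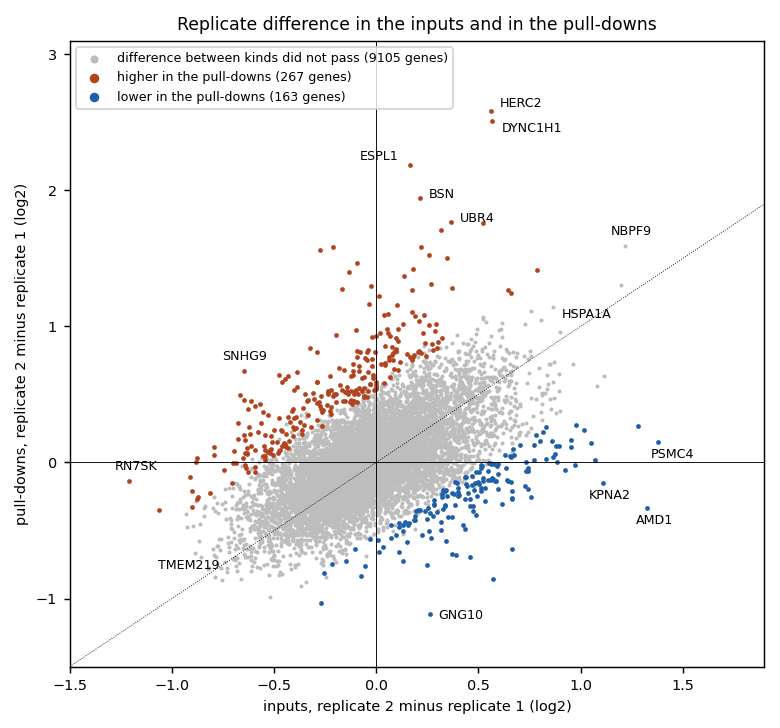
Log2 difference between replicate 2 and replicate 1 in the inputs (x axis) and in the pull-downs (y axis) for 9535 genes, with the dotted line at equal differences. The 267 orange genes were higher and the 163 blue genes lower in the pull-downs by the test of the difference; HERC2 lies at 0.56 and 2.59 and AMD1 at 1.33 and -0.33.

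The share of genes that passed was lowest among dim genes. When the genes were divided into 4 equal sets by mean value, 5.33% of the dimmest set were higher and 7.93% lower, against 11.5% to 12.8% higher and 13.97% to 18.4% lower in the other sets. When they were divided by gene length in RefSeq, the share of higher genes was 8.35% in the set of the shortest, 11.1% and 13.01% in the next sets and 9.69% in that of the longest, and the share of lower genes was 16.9%, 15.02%, 13.9% and 12.8%. Genes after which RefSeq names 1 or 2 pseudogenes were higher in 14.2% and lower in 15.5%, those with 3 or more in 13.4% and 12.8%, and those with none in 9.84% and 14.6%. In the set of the brightest genes the shares of higher genes were 13.2%, 13.1% and 12.3% in the same order, and without ribosomal protein genes 12.5% of those with 3 or more were higher. These splits describe the called genes and were not tested.

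Promoters of the called genes were read in RefSeq (build GRCh38.p14), for 7847 genes with a promoter, over the 250 bases before the start and on both strands. The motif CCGGAAG, a site of ETS factors, was found in 19.7% of the higher and 14.6% of the lower genes, against 17% of all. GGGCGG, a site of SP factors, was in 66.4%, 74.9% and 69.4%, and CCAAT in 38.6%, 34.7% and 36.3%. The motif CACGTG, an E-box, was found in 9.46%, 9.90% and 9.43%, and TATAAA in 5.49%, 3.45% and 4.87%. The motif of NRF1 was found in 2.34%, 1.91% and 2.10% and that of ZBTB33 in 1.29%, 0.999% and 0.956%, and none of these motifs holds another. The median GC content was 64.0% for the higher, 67.6% for the lower and 65.2% for all genes. ALYREF and TSNAX are shown because they rose and carry CCGGAAG, and RBM38 because it fell and carries GGGCGG in many copies, with matches to the ETS, the SP and the CCAAT motif on either strand in capitals. Copies of GGGCGG overlap in RBM38. A match is only a description of the letters.
ALYREF, chr17:81891588-81891837, minus strand: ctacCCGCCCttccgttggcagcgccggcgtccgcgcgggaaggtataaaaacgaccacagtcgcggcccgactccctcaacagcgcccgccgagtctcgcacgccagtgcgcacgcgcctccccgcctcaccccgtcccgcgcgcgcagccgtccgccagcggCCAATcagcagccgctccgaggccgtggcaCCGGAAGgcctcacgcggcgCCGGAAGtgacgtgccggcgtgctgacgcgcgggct
TSNAX, chr1:231528419-231528668, plus strand: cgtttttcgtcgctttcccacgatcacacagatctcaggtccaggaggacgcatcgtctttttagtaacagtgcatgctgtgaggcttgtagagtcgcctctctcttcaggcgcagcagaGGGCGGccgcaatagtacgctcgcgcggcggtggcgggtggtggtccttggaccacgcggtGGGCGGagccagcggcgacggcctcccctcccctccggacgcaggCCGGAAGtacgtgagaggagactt
RBM38, chr20:57391146-57391395, plus strand: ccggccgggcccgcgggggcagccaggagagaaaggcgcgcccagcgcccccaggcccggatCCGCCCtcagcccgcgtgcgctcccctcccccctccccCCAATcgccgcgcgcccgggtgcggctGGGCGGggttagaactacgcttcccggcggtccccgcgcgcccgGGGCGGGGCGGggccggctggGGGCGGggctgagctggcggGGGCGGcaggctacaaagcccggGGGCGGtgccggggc

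Most genes expected in this cell line were measured. Of 17 listed markers of HEK293 cells 13 were measured, of which 3 rose, 0 fell and 10 did not pass. Their median was 0.12 and the lowest was -0.29, and 10.6% of all genes were higher and 14.6% lower. The 3 were VIM (0.69), KRT18 (0.41) and NEFM (0.37). The summed level of the 13 was between 14.3 and 14.4 in the replicate 1 inputs and 14.6 in the replicate 2 inputs on the log2 scale. Of other cell types few markers were measured, namely 1 of 12 for fibroblasts (COL1A1), 2 of 13 for leukocytes (CD14 and CD68), 2 of 15 for epithelia and 1 of 11 for hepatocytes and HeLa-like cells. The summed leukocyte level was 9.38 and 9.50 in replicate 1 and 8.92 and 8.98 in replicate 2, where the brighter CD68 probe fell by 0.70 and the dimmer one differed by 0.04, and COL1A1 lay between 7.53 and 7.81 on all 4 inputs. The part of such genes in the shifts was not tested. In bulk RNA, fewer cells that hold a transcript and less of it per cell cannot be told apart.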

How the data were processed

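RNA of HEK293T cells was measured on Illumina bead arrays, in 4 groups (miR-23b input, miR-27a input and both pull-downs) of 2 arrays each. The log2 values are those the authors deposited for 14479 probes after processing with lumi 2.2.1, per the submitters' processing notes; for the transformation, the normalization and any filter, the setting is not given in the sources used here. This scale was read as log2, and a variance-stabilising step would compress low values, so folds are apparent. A further deposited table held 16 value columns (8 of signal and 8 of detection p) that matched no sample by name, and it was not used.

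In R 4.3.3, limma 3.58.1 was fitted to all 8 arrays with a mean for each group, which pairs the arrays by microRNA, and with 1 replicate effect for inputs and 1 for pull-downs. Tests were two-sided and adjusted by Benjamini-Hochberg over all 14479 probes, with a threshold of 0.05. The fit had 2 residual degrees of freedom. It was also run on simulated data with independent noise and few changed probes. That run checked the code only and is no support for the calls. Probes were named through the platform annotation, by which 12008 had 1 gene, 2 had several and 2469 had none. Of these, 12006 were found by Entrez ID in RefSeq, and the brightest probe stood for each of 9535 genes. For the inputs the text names the 12 genes with the largest called difference in each direction, among those with the same sign in both pairs. It also names the 5 largest in each direction in the pull-downs and in the difference between the kinds, and up to 4 per list and direction. Genes beyond this were chosen after their values were seen. The members and lists were chosen with earlier results of these data known. Alternatives were fits within 1 kind of array, without pairing, after quantile normalization or median scaling, without the dimmest probes, with an intensity trend in the prior variance, and with each array left out. Depth does not apply to arrays, and 2 arrays per group limit the precision.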

Additional observations from a re-analysis of the deposited data

Results flagged for a closer look

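For the genes below the replicate difference in the pull-downs and that in the inputs were unequal by the test of the difference itself (limma, adjusted p under 0.05). Values are the log2 difference in the pull-downs minus that in the inputs. Among the genes with the largest rise in the inputs it was -1.23 for PSMC4, -1.66 for AMD1, -1.01 for PIPSL, -1.26 for KPNA2, -1.05 for ALYREF, -0.91 for RPS7, -0.77 for TSNAX and -0.70 for ATG4B. Among those with the largest fall it was 1.08 for RN7SK, 0.72 for TAF5L, 0.80 for C1QL1, 0.69 for TMEM30A, 0.58 for ENHO, 0.88 for RPS6KA3 and 0.91 for UBALD1. These 15 genes were chosen by their input difference, which enters the value. Without pairing by microRNA 10 of all probes passed this test, 7 higher and 3 lower. At most 3 of the genes with a negative value could thus keep their call, and AMD1 (adjusted p = 0.42) and KPNA2 (0.18) lost it.

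Genes chosen by the pull-downs or by the difference itself gave 2.03 for HERC2, 2.02 for ESPL1, 1.94 for DYNC1H1, 1.84 for HEATR5B, 1.80 for MED12, 1.73 for BSN and 1.40 for UBR4. The lower ones were SPG21 at -1.43, GNG10 at -1.37, LYPLA1 at -1.30 and SERF1B at -0.76.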

How the results depend on the processing

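No paired analysis was possible because the replicate number is itself what is compared; the pairing here is by microRNA. The number of probes past the threshold was 3801 for the inputs, 3538 for the pull-downs and 877 for the difference between them, and it stayed within 1.5 times of these after quantile normalization, median scaling, the loss of the dimmest probes or a trend in the prior variance, as it did when only inputs (5635) or only pull-downs (2626) were fitted. Without pairing by microRNA it was 184, 217 and 10. Leaving out 1 array gave 469 to 5635 for the inputs, 2626 to 4247 for the pull-downs and 132 to 1972 for the difference. The inputs fell to 469 without either miR-23b input and to 628 without either miR-27a input, where 1 pair remained and its spread was taken to be that of the pull-downs, and rose to 5635 without any 1 pull-down. The difference fell to 218 and 132 without an input of miR-23b or miR-27a, and rose to 1703 and 1972 without a pull-down of miR-23b or miR-27a. The causes were not tested. No gene named for its size in 1 of these comparisons turned direction in any of these fits. The input genes were chosen with the same sign in both pairs, so a fit on 1 remaining pair of inputs could not turn them. For those genes the lack of a turn is therefore no support.

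Without pairing the pull-down calls of GNG10 and AP3S1 were lost (adjusted p = 0.063). The median of the cholesterol list turned to -0.08 without a miR-23b input. The grouping by pseudogenes, probes, RNA class and promoter motifs, and the list of splicing proteins, were chosen after seeing the data.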
